A study of Homo sapiens with 2 samples.

Results

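Genes of iron handling were followed in Huh-7 cells, a human hepatoma line that keeps many traits of hepatocytes, on 1 array of interferon-alpha treated cells and 1 array of untreated cells. The 10 genes were HAMP, TF, TFRC, TFR2, FTH1, FTL, SLC40A1, HFE, HMOX1 and CP, and every probe set of the value table annotated to only 1 of them was taken. This gave 37 of the 41091 probe sets annotated to 1 gene, and they covered 9 of the 10 genes. No probe set was annotated to FTH1 alone, so that gene is named without a value. The treated culture was exposed for 6 hours to recombinant human interferon-alpha 2b (100 U/mL), added with fresh medium after 24 hours of incubation. The untreated culture had its medium exchanged at that point, and the sources used here do not give its harvest time. Each condition was 1 culture and 1 array, so no difference below has a replicate check and no test or p-value is given. A bulk array cannot tell fewer cells of a kind from less RNA per cell.

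Hepatocytes are the main regulators of body iron. They secrete hepcidin, the product of HAMP, a peptide hormone that binds the iron exporter ferroportin and sends it for degradation, so that less iron enters the plasma. Hepcidin transcription is driven by bone morphogenetic protein (BMP) signals through SMAD proteins, which report iron stores, and by interleukin-6 through STAT3, which reports inflammation. Inside the cell, iron regulatory proteins bind hairpins called iron-responsive elements, which block ferritin translation and protect transferrin receptor mRNA when iron is scarce. Much ferritin control therefore acts on translation, which an mRNA array does not measure.

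The regulatory sequences behind these routes are shown because they are the motifs searched for in the start regions of the measured genes. All come from RefSeq on GRCh38.p14 and are written 5′ to 3′, with positions counted from the annotated start of transcription. The first is the 250 bases before the start of HAMP on the plus strand (chr19:35282278-35282527), with a GC palindrome of the kind that BMP signals act on in capitals at -105 to -100 and a STAT site in capitals at -93 to -85. The second is a stretch of FTL on the plus strand (chr19:48965336-48965358) from 28 to 50 bases after the start, with the loop of its iron-responsive element in capitals. The last pair, from genes used here as a check of the treatment, run from -120 to -91 of ISG15 (chr1:1013377-1013406) and IFIT1 (chr10:89392503-89392532), both on the plus strand, with interferon-stimulated response elements in capitals.
HAMP: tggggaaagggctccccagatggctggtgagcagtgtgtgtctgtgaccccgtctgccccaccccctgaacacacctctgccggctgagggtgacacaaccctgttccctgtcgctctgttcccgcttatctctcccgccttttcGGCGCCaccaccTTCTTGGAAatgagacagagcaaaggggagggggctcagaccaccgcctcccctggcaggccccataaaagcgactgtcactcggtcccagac
FTL: tcttgcttcaaCAGTGTttggac
ISG15: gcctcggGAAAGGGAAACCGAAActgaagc
IFIT1: ttagTTTCACTTTCcccTTTCGGTTTCcct

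Windows from 250 bases before to 50 bases after a start were available for 6 of the 10 genes (HAMP, TF, TFRC, HFE, FTL and SLC40A1), with 7 windows in all because TF has a pair of starts. The interferon-stimulated response element, searched as GAAANNGAAA on both strands, was in 0 of these 7 windows and in 3.57% of all 35116 windows. Among the 4 genes used to check the treatment it was in at least 1 window of 3 (ISG15, IFIT1 and MX1). In ISG15 a pair of matches overlapped. The STAT site, searched as TTCNNNGAA on both strands, was in 1 of the 7 windows, that of HAMP, and in 7.66% of all windows. The palindrome GGCGCC was in 4 of the 7 windows (HAMP, TFRC and both of TF) and in 19.2% of all windows. The letters CAGTGN, the loop of the iron-responsive element, are short and were found on 1 strand or the other in 52.5% of all windows, so only the known element of FTL is shown. A match describes these letters in these windows and does not show that a factor was bound.

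Values are the authors' processed intensities on a linear scale. A floor of 48.46 was used, which is the median of every value on the arrays with controls left out, and a probe set counted if it lay above the floor on at least 1 array. Of the 37 iron handling probe sets, 27 exceeded the floor on each array, 1 exceeded it on the untreated array alone, and 9 fell short of it on each. Those that fell short were 6 of the 15 HFE probe sets and 1 each for TF, TFRC and CP, and the 1 above it on the untreated array alone was also an HFE probe set. The brightness of different probe sets is not comparable as transcript abundance, so each level is set only against the floor and against the same probe set on the other array.

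The labelled treatment and cell type were visible in the values. ISG15, a ubiquitin-like protein that interferon induces, had an intensity of 8332 on the interferon array and 351.2 on the untreated array. IRF9, a transcription factor of the interferon response, had 2143 on the interferon array and 106.7 on the untreated array. The antiviral genes IFIT1 and MX1 did not reach the floor without interferon and were at least 64.5-fold and 16.9-fold higher on the interferon array. The hepatocyte markers ALB, APOB, AFP, TTR and SERPINA1 had intensities of 3223 to 14588 on the interferon array. On the untreated array they had 2999.9 to 12212. HNF4A had no named probe set, which here and below means none annotated to that gene alone. Of the leukocyte and macrophage markers, neither PTPRC nor CD163 reached the floor, CD14 and MARCO had intensities of 76.5 to 90.2 on the interferon array and 91.1 to 99.9 on the untreated array, and CD68 had no named probe set. Of the endothelial markers, CDH5 did not reach the floor, and PECAM1 and VWF lay between 49.99 and 152.4 on the interferon array and between 67.1 and 158.0 on the untreated array.

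None of the 28 counted iron handling probe sets reached a 1.5-fold difference between the arrays. The count was 0 for a ratio of 1.5-fold or more and 0 for 1.5-fold or more the other way, where the share of all 23871 counted probe sets was 0.754% higher and 0.0754% lower. At 2-fold the counts were also 0 and 0, beside 0.364% higher and 0% lower of all counted probe sets. With shares this small, counts of 0 among 28 do not set these probe sets apart. The median log2 ratio (interferon over untreated) of the 27 was 0.003, beside 0.04 for the 22682 probe sets of all genes, and their values ran from -0.24 to 0.35. Of the 27, 14 had a ratio above 0, 12 below 0 and 1 at 0, and 59.6% of all probe sets were above 0. HFE alone supplied 8 of the 27. Without it the median of the other 19 was 0.14, with 13 above 0. Of these 19, 7 were in the brightest of 10 equal groups of all probe sets, a group with a median of 0.13.

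**Figure D1:**
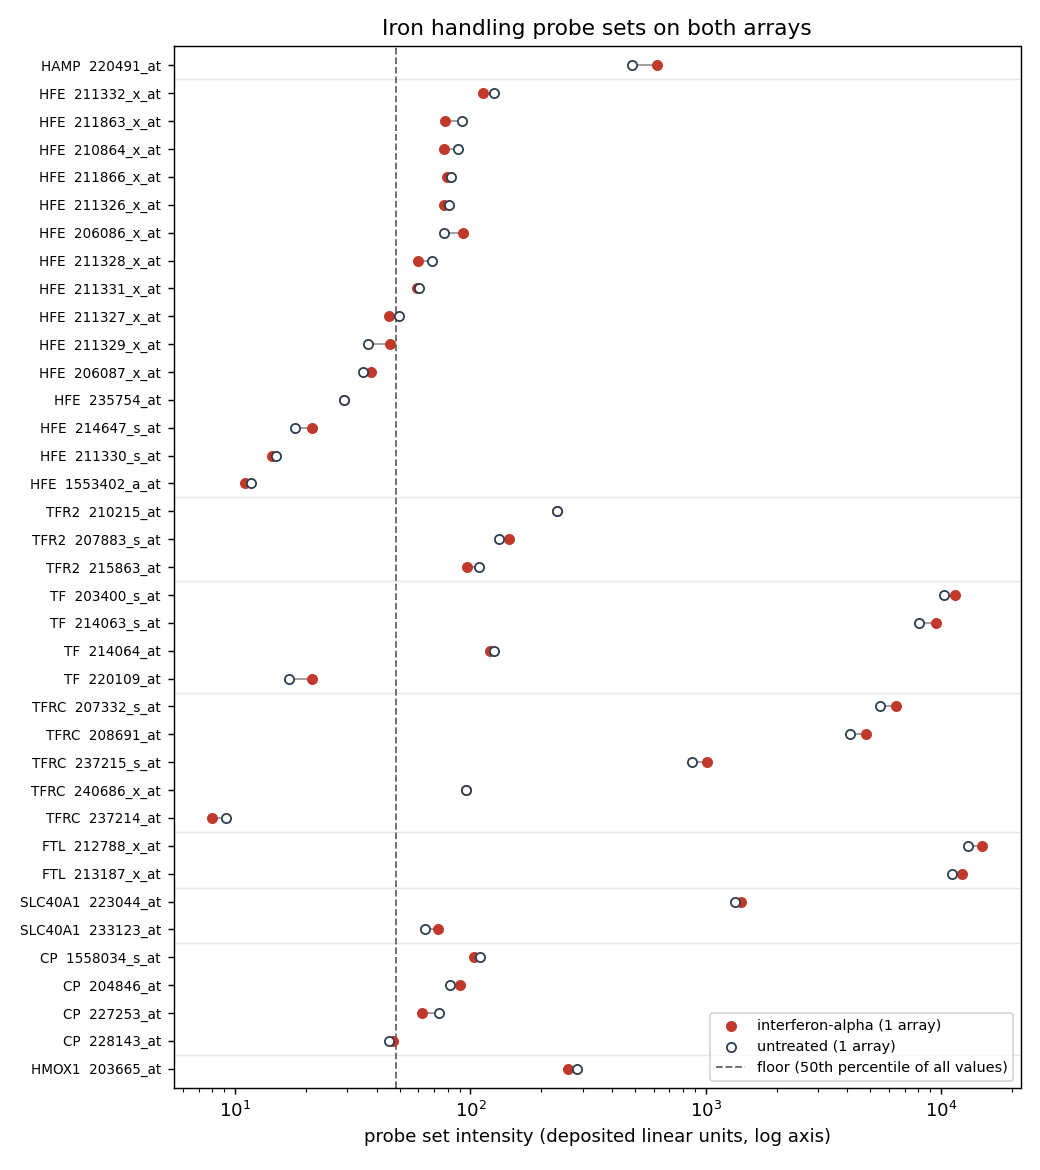
Intensity of each of the 37 probe sets on the interferon-alpha array (filled) and the untreated array (open), on a log axis, grouped by gene, with the floor of 48.46 as a dashed line. The markers of a probe set lie close together throughout, and the probe sets of TF, TFRC, HFE and SLC40A1 differ far more in brightness from each other than between the arrays.

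HAMP had the highest ratio of the 27. Its 1 probe set, 220491_at, had an intensity of 619.4 on the interferon array and 487.6 on the untreated array. The interferon value was 1.27-fold the untreated one, a log2 ratio of 0.35. Of all probe sets that exceeded the floor on each array, 482 of 22682 (2.13%) had a ratio at least as high, and among the 2268 probe sets in its own group of brightness, 1 of 10 equal groups, 35 (1.54%) did. HAMP was the only one of the 27 outside the central 95% of all log2 ratios, which ran from -0.28 to 0.33, and the only one outside the central 95% of its own brightness group. That spread is taken over genes and is not a replicate error, and no further HAMP probe set was there to compare. A central 95% leaves some probe sets outside by definition, and 1 of 27 is no larger a share than that. HAMP was also picked as the highest of the 27, so its shares are those of a chosen extreme. Median centring (0.31), quantile normalization (0.28) and a lowess fit on brightness (0.29) left the log2 ratio above 0, whereas centring on the 18 hybridisation controls gave -0.08.

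That last setting turns the sign of most ratios above 0 and of none below 0. The hybridisation controls, bacterial and phage transcripts added to the labelled sample, had a median log2 ratio of 0.43 and ran from 0.14 to 0.56. Centring on their median moved the median of all probe sets from 0.04 to -0.39. All log2 ratios drop by the same amount under it, so the order of the genes stays as it is.

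HFE and TFR2, membrane proteins of hepatocytes that take part in sensing transferrin-bound iron upstream of hepcidin, had ratios on both sides of 0. HFE, an MHC class I-like protein, was read by 15 probe sets, of which 11 have names ending in _x_at, a mark of probes that can bind other transcripts. The 8 that exceeded the floor on each array had intensities of 59.0 to 113.0 (median 77.6) on the interferon array and 60.6 to 126.0 (median 82.1) on the untreated array. Of these 8, 7 had a log2 ratio below 0, the lowest being -0.24 (211863_x_at, with 77.9 on the interferon array and 92.2 on the untreated array). The remaining one, 206086_x_at, had 92.7 on the interferon array and 77.5 on the untreated array, a log2 ratio of 0.26. The probe sets of this gene thus disagreed in direction by 0.50 from lowest to highest. In the 14 genes with at least as many probe sets above the floor, HFE included, the median range was 0.45.

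The probe set 211327_x_at of HFE had 44.9 on the interferon array, below the floor, and 49.5 on the untreated array, just above it. The other 6 HFE probe sets lay between 11.0 and 45.3 on the interferon array and between 11.6 and 36.5 on the untreated array. TFR2, a homologue of the transferrin receptor found mainly in liver, had 3 probe sets, all above the floor. 210215_at had 233.8 on the interferon array and 233.3 on the untreated array, a log2 ratio of 0.003. 207883_s_at had 145.5 on the interferon array and 132.6 on the untreated array, a log2 ratio of 0.13. 215863_at had 96.8 on the interferon array and 109.2 on the untreated array, a log2 ratio of -0.17. The brightest probe set thus gave nearly the same value on both arrays, and the dimmer ones departed from it in opposite directions.

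TF, the plasma iron carrier transferrin that hepatocytes secrete, was bright on both arrays. 203400_s_at had 11418 on the interferon array and 10244 on the untreated array, a ratio of 1.11-fold. 214063_s_at had 9522 on the interferon array and 8043 on the untreated array, or 1.18-fold. A dim probe set, 214064_at, had 121.1 on the interferon array and 126.1 on the untreated array, a log2 ratio of -0.06. The remaining one, 220109_at, was below the floor at 21.2 on the interferon array and 17.0 on the untreated array. The bright pair gave log2 ratios of 0.16 and 0.24, on the other side of 0 from the dim one, although the lowess fit on brightness turned the brightest to -0.05 and left the next at 0.05.

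TFRC, the receptor that takes up transferrin into most cells, had 3 bright probe sets with nearly equal ratios. 207332_s_at had 6443 on the interferon array and 5515 on the untreated array (1.17-fold, log2 0.22). 208691_at had 4789 on the interferon array and 4096 on the untreated array (1.17-fold, log2 0.23). 237215_s_at had 1008 on the interferon array and 874.0 on the untreated array (1.15-fold, log2 0.21). These 3 probe sets lay within 0.02 of each other on the log2 scale as deposited. The lowess fit on brightness left 207332_s_at at 0.04, 208691_at at 0.06 and 237215_s_at at 0.12, so the lowest as deposited became the highest. 240686_x_at had the identical value of 95.8 on both arrays, and 237214_at was below the floor at 7.97 on the interferon array and 9.18 on the untreated array.

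FTL, the light chain of ferritin, the shell in which cells store iron, had intensities near the top of the range. 212788_x_at had 14925 on the interferon array and 13015 on the untreated array (1.15-fold, log2 0.20). 213187_x_at had 12275 on the interferon array and 11078 on the untreated array (1.11-fold, log2 0.15). Both names end in _x_at, and ferritin genes have many processed pseudogenes, so these values can include transcripts of near-identical sequence. SLC40A1, the exporter ferroportin on which hepcidin acts, had 1418 on the interferon array and 1325 on the untreated array with 223044_at (1.07-fold, log2 0.10). Its other probe set, 233123_at, had 72.8 on the interferon array and 64.3 on the untreated array (1.13-fold, log2 0.18).

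The ratios of the bright iron genes followed those of bright probe sets in general. The brightest group, 2269 probe sets, had a median log2 ratio of 0.13 and a central 95% of -0.03 to 0.29, whereas the dimmest group had a median of -0.03. The 7 iron handling probe sets in the brightest group (both of FTL, 2 of TF, 2 of TFRC and 1 of SLC40A1) ran from 0.10 to 0.24, with a median of 0.20, all inside that range. After the lowess fit, which removes the trend with brightness, the same 7 ran from -0.06 to 0.06 with a median of -0.01. The 16 iron handling probe sets in the dimmer 5 groups had a median of -0.06, beside a median of -0.01 for all probe sets there. Of the 16, 4 were above 0, 11 below 0 and 1 at 0. HFE alone supplied 8 of these 16, with 7 below 0 and 1 above, so the count leans on 1 gene.

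**Figure D2:**
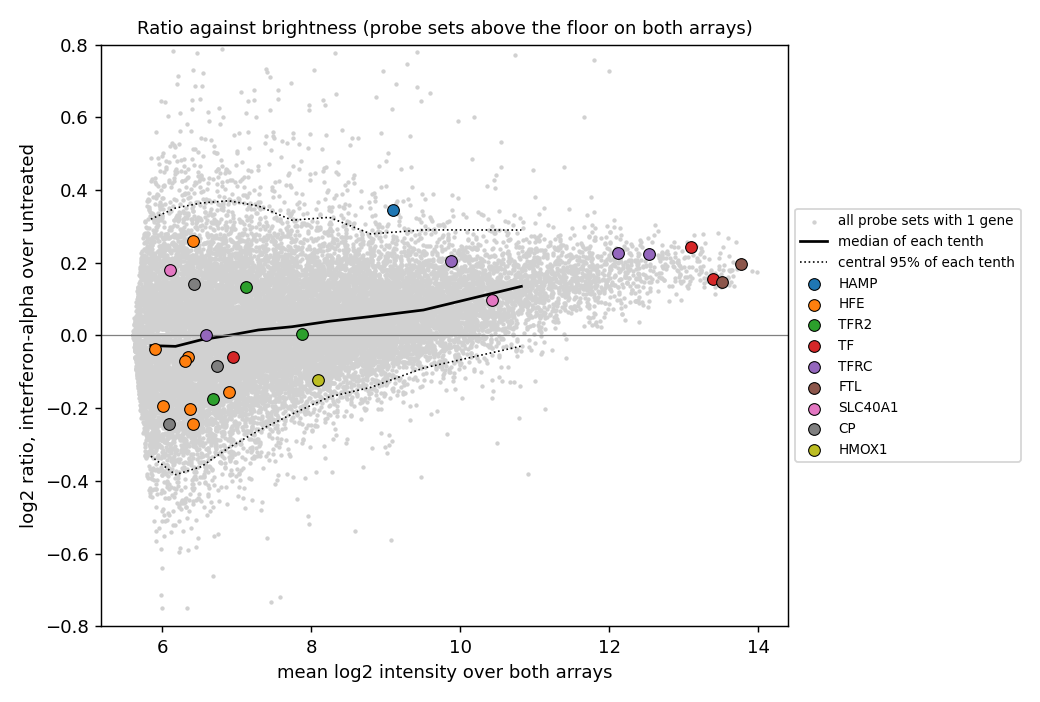
Log2 ratio of interferon-alpha over untreated against mean log2 intensity for probe sets that exceed the floor on each array, with iron handling genes coloured, the median of 10 brightness groups as a line and their central 95% dotted; probe sets beyond 0.8 in either direction are not drawn. HAMP lies above the upper dotted line at 0.35, and the bright TF, TFRC and FTL points follow the upward drift of the median; centring on the hybridisation controls would lower every point by 0.43.

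CP and HMOX1 deal with the oxidation of iron and the breakdown of haem. CP, the plasma ferroxidase ceruloplasmin, had 4 probe sets. They lay between 47.0 and 103.1 on the interferon array and between 45.1 and 109.4 on the untreated array. 1558034_s_at had 103.1 on the interferon array and 109.4 on the untreated array (log2 -0.09). 204846_at had 90.5 on the interferon array and 82.0 on the untreated array (log2 0.14), and 227253_at had 62.3 on the interferon array and 73.7 on the untreated array (log2 -0.24). 228143_at was below the floor at 47.0 on the interferon array and 45.1 on the untreated array. The direction of CP therefore depends on the probe set. HMOX1, haem oxygenase 1, which splits haem and frees its iron, had 260.8 on the interferon array and 283.9 on the untreated array with its 1 probe set, a log2 ratio of -0.12 that lies inside the central 95% of its brightness group (-0.17 to 0.32).

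**Figure D3:**
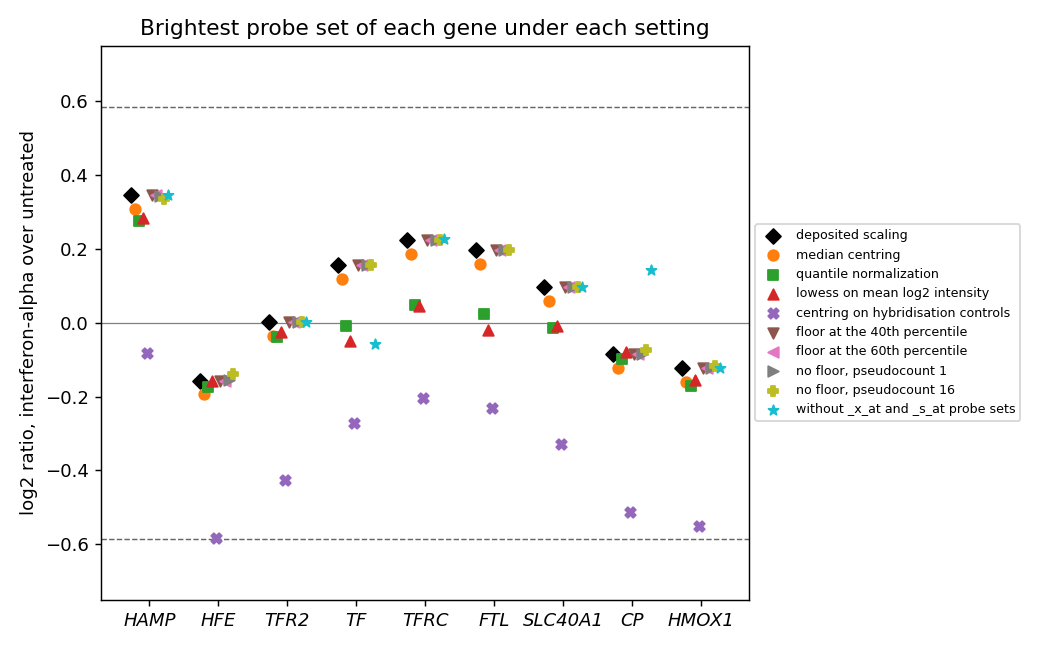
Log2 ratio of interferon-alpha over untreated for the brightest probe set of each of the 9 measured genes under the scaling as deposited and 9 alternatives, with 1.5-fold marked by dashed lines. HAMP stays between 0.28 and 0.35 except after centring on the hybridisation controls (-0.08). TF, FTL and SLC40A1 go to about 0 under quantile and lowess scaling, and TFRC goes to 0.05 and 0.04. No point is past either dashed line, the lowest being HFE after centring on the hybridisation controls (-0.58).

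A wider list of 77 genes of iron and haem handling put the 10 genes in context, with the brightest probe set standing for each gene. Of the 77, 71 had a named probe set, 67 exceeded the floor on each array and 4 on none. The count was 0 for genes 1.5-fold or more higher, beside 0.754% of 13269 counted genes, and 0 for genes 1.5-fold or more lower, beside 0.0829%. The median log2 ratio was 0.03, beside 0.04 for the 12742 genes of the whole table that exceeded the floor on each array. Of the 67, 41 genes were above 0, 24 below 0 and 2 at 0. Counted by probe set rather than by gene, 59.6% of all those above the floor on each array were above 0.

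Genes that control hepcidin held the highest ratio of the list. BMPR2, a type II receptor for BMP ligands, had 274.1 on the interferon array and 190.1 on the untreated array, or 1.44-fold (log2 0.53). All 3 of its probe sets that exceeded the floor on each array had a ratio above 0, the others having log2 ratios of 0.31 and 0.28. After centring on the hybridisation controls the brightest was at 0.10 and the others were at -0.12 and -0.15. Next in that group was IL6ST, the signal-transducing chain gp130 of the interleukin-6 receptor, with 1392 on the interferon array and 1104 on the untreated array (1.26-fold, log2 0.33). Its 5 probe sets above the floor ran from 0.07 to 0.33. BMP4, a BMP ligand, had the lowest ratio, with 84.7 on the interferon array and 101.0 on the untreated array (log2 -0.25).

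The other 21 measured genes of this group had a median log2 ratio of 0.03 and ran from -0.17 to 0.19. The ends of that range were SMAD6, an inhibitory SMAD, at -0.17 (2 probe sets, at -0.17 and -0.01), and SMAD5, which carries BMP signals, at 0.19 (5 probe sets, from 0.02 to 0.19). ATOH8, a transcription factor near the floor, had -0.16. ID1, a gene that BMP signals induce alongside HAMP, had 6650 on the interferon array and 5838 on the untreated array (log2 0.19, 0.01 after the lowess fit). SMAD7, a further inhibitory SMAD, which the same signals induce, had the identical value of 204.6 on both arrays. BMP6, the ligand that reports liver iron, was barely above the floor, at 53.2 on the interferon array and 52.0 on the untreated array. TMPRSS6, the protease that lowers hepcidin by cleaving hemojuvelin, had a log2 ratio of -0.05, and HJV, the gene of hemojuvelin itself, had the identical value of 103.3 on both arrays, with a decimal ending that recurs across the table. STAT3 had a log2 ratio of 0.08 with its brightest probe set, and its 3 probe sets above the floor ran from 0.08 to 0.27. Its target SOCS3 had -0.07.

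Among genes of iron uptake and transport within the cell, SLC25A28 stood highest. It encodes mitoferrin 2, a carrier of iron into mitochondria, and had 275.3 on the interferon array and 197.3 on the untreated array, or 1.40-fold (log2 0.48). Its second probe set had 238.2 on the interferon array and 189.1 on the untreated array (log2 0.33). Centring on the hybridisation controls gave 0.05 and -0.09. SLC39A14, a transporter for iron not bound to transferrin in hepatocytes, had 4446 on the interferon array and 3608 on the untreated array (1.23-fold, log2 0.30, 0.14 after the lowess fit). The lowest of the group was STEAP3, a ferrireductase of endosomes, at -0.18. The 10 genes above the floor had a median of 0.01, with 5 above and 5 below 0.

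Storage and iron-regulated translation had a median of 0.18 over 6 genes, the highest of the groups as deposited, and of 0.04 after the lowess fit. HERC2, a ubiquitin ligase, had the highest ratio at 0.22, although its 2 probe sets ran from -0.11 to 0.22, and kept 0.20 after the lowess fit. FBXL5, the ubiquitin ligase subunit that removes iron regulatory proteins, had 0.20 and kept 0.16, with 2 probe sets from -0.12 to 0.20. ACO1, iron regulatory protein 1, had the lowest ratio at -0.04. NCOA4, the receptor that delivers ferritin to lysosomes, had 3555 on the interferon array and 3061 on the untreated array (log2 0.22, 0.06 after the lowess fit). The RNA-binding proteins PCBP1 and PCBP2, which carry iron to ferritin, had 0.16 and 0.15 as deposited and 0.01 and -0.02 after the lowess fit. As deposited, the 6 probe sets of PCBP2 above the floor ran from 0.10 to 0.43. For IREB2, iron regulatory protein 2, and for FTMT, no probe set was annotated to the gene alone.

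The 18 genes of haem synthesis and breakdown above the floor had a median of 0.02 and ran from -0.26 to 0.18. The extremes were SLC48A1, a haem transporter of endosomes and lysosomes, at -0.26 (its 3 probe sets ran from -0.26 to 0.14), and the quinone reductase NQO1 at 0.18 (0.01 after the lowess fit). The 7 genes of iron-sulphur cluster assembly had a median of 0.01, between NFS1, the cysteine desulphurase, at -0.03 and the co-chaperone HSCB at 0.23. Among the remaining binders and oxidases, MELTF had a log2 ratio of 0.08 and LTF, lactoferrin, -0.31 at intensities near the floor (56.4 on the interferon array and 69.7 on the untreated array). The ferroxidase HEPH and the siderophore-binding LCN2 did not reach the floor.

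**Figure D4:**
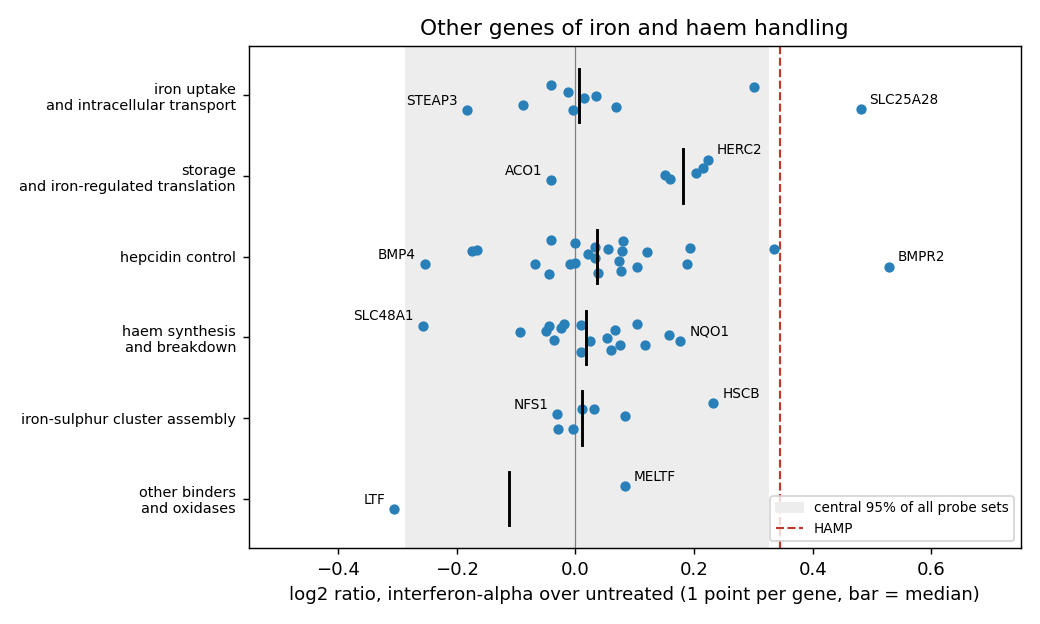
Log2 ratio of interferon-alpha over untreated for the 67 other genes of iron and haem handling that exceed the floor on each array, 1 point per gene, by group, with group medians as bars, the central 95% of all probe sets shaded and HAMP as a dashed line. BMPR2 (0.53) and SLC25A28 (0.48) lie to the right of HAMP (0.35), and LTF (-0.31) is the one point left of the shaded range; centring on the hybridisation controls would shift every point left by 0.43.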

How the data were processed

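The data are 2 arrays of total RNA from Huh-7 cells, 1 per condition, with biotinylated cRNA made from 6 µg of RNA per the labels' protocols. The deposited table gives 1 linear intensity for each probe set and array, which the authors made with GCOS, per the submitters' processing notes. Which version, background correction and scaling they used is not stated there. The number of arrays limits the precision.

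Of 54675 probe sets, 62 were controls, 41091 had 1 gene in the platform annotation, 1801 had several and 11721 had none named. Symbols of 41037 were updated by gene ID through RefSeq. Members and lists were chosen with earlier results of these data known. Named were the 10 genes with all their probe sets and, from the wider list, the highest and lowest gene of each group. BMP6, HJV, TMPRSS6, ID1, SMAD5, SMAD6, SMAD7, ATOH8, FBXL5, STAT3, SOCS3, IL6ST, SLC39A14, NCOA4, PCBP1, PCBP2, HEPH, LCN2, IREB2, FTMT and FTH1P5 were added after their values were seen.

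Values below the floor were raised to it before log2 was taken. The brightest probe set of a gene was taken by its log2 intensity averaged over the arrays. Calculations used Python 3.11.15, pandas 2.3.3 and statsmodels 0.14.6 (lowess span 0.3), and were tested on simulated data with 200 changed probe sets. Alternatives were median, quantile, lowess and hybridisation-control scaling, floors at the 40th and 60th percentiles, pseudocounts of 1 and 16 without a floor, and no _x_at or _s_at probe sets.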

Additional observations from a re-analysis of the deposited data

How the results depend on the processing

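Counts of iron handling probe sets at least 1.5-fold higher, and 2-fold higher or lower, were 0 under all 9 alternatives. Centring on the hybridisation controls gave 5 of the 28 at least 1.5-fold lower, a median of -0.42 over the 27, 6 wider-list genes at least 1.5-fold lower and a wider-list median of -0.39, because it subtracts 0.43 from every log2 ratio. Under the other 8 alternatives those counts were 0 and the medians moved by less than 0.13, the robust SD of all log2 ratios. The median over iron handling probe sets was 0.06 and 0.10 with floors at the 40th and 60th percentiles and below 0 after median (-0.03), quantile (-0.02) and lowess (-0.02) scaling. Of 79 gene values over the alternatives, 17 moved by more than 0.13, 9 of them under the hybridisation controls. TF became -0.01 under quantile scaling, -0.05 under lowess and -0.06 without _x_at and _s_at probe sets, which also turned CP to 0.14. That last setting left no FTL or counted HFE probe set and so gave no value for them. Dim signals, some of them near or below the floor, limit HFE and CP. No paired analysis was possible because each condition has 1 array.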

Other observations

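FTH1P5, a pseudogene of the ferritin heavy chain, had 7966 on the interferon array and 7175 on the untreated array (211628_x_at), a log2 ratio of 0.15 and of -0.04 after the lowess fit. Its probes can read heavy chain transcripts of near-identical sequence, and the share of each was not tested.

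Identical values on both arrays were frequent. They occurred in 2361 of 54613 probe sets (4.32%), among them 240686_x_at of TFRC and 235754_at of HFE, and in 537 probe sets annotated to 1 gene and above the floor. A repeated decimal part was also seen: 972 probe sets of the interferon array and 946 of the untreated array ended in 0.316231, and 881 and 916 in 0.816231. An ending of this kind stood on both arrays for 1782 probe sets, of which 37 had the same value on both. The TFRC probe set 240686_x_at, at 95.816231 on both arrays, the HJV probe set, at 103.316231 on both arrays, and the SLC25A28 probe set 223192_at, at 275.316231 on the interferon array and 197.316231 on the untreated array, were among them, as were probe sets of BMP2, FLVCR1, PCBP2, SMAD6 and STEAP1. How these values arose was not tested.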
